A study of Mus musculus with 35 samples.

Results

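Members of the transforming growth factor beta (TGF-beta) pathway, 10 genes in all, were followed across resident and circulating CD8+ T cells and across the whole tissues they came from: the ligand gene Tgfb1, the receptor genes Tgfbr1 and Tgfbr2, the signal carriers Smad2, Smad3 and Smad4, the inhibitory Smad7, and the corepressors Ski, Skil and Tgif1. They were taken by name, as the probes whose transcript accession belongs to one of these genes, which gave 15 of 39429 probes and 10 of 20886 named genes. The arrays were 1-colour mouse arrays hybridised with RNA of healthy wild-type C57Bl/6 females, 8 to 16 weeks old, that carried no transgene and received no treatment. Resident memory cells (Trm) were CD8b-positive, CD103-positive cells isolated by magnetic beads, with 5 arrays from the liver, 6 from the lung and 6 from the intestine. Effector memory cells (Tem, n = 6) were CD8b-positive, CD62L-negative cells of the blood. Unsorted liver, lung, intestine and blood mononuclear cells (PBMC), called whole liver and so on, had 3 arrays each. CD103 was itself a sorting marker, so each Trm group is a CD103-selected population and not all resident cells of its organ. The labels do not tie arrays to animals, so p-values measure only the spread between these samples.

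TGF-beta binds the receptor that Tgfbr2 encodes, which recruits and phosphorylates the one that Tgfbr1 encodes. The activated complex phosphorylates SMAD2 and SMAD3, which join SMAD4, enter the nucleus and bind DNA at short SMAD boxes. SMAD7 blocks the receptor and is itself a target of the pathway, whereas SKI, SKIL (also called SnoN) and TGIF1 hold SMAD complexes in a repressed state. In CD8+ T cells the pathway is known to induce Itgae, the gene of CD103, and to restrain cytotoxic genes. Itgae had no matched probe, so its RNA was not analysed here.

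The SMAD box can be read in the promoters of Smad3, the member that differed between Trm and Tem cells, and of Tgfbr2, the receptor gene measured on every sorted array. The 250 bases before each start site, from RefSeq on GRCm38.p6, lie at chr9:63757995-63758244 for Smad3 and chr9:116175364-116175613 for Tgfbr2, both on the minus strand. They are written 5′ to 3′ with the box AGAC in capitals.
Smad3: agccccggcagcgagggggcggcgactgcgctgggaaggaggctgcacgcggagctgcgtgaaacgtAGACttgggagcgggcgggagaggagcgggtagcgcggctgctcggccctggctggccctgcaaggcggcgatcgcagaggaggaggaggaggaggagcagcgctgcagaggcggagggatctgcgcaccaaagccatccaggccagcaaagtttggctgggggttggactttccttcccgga
Tgfbr2: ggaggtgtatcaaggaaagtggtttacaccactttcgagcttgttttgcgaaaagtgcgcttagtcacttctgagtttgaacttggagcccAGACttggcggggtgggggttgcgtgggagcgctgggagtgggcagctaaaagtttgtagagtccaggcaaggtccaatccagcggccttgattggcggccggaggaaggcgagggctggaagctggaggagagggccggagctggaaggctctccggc
Each window held 1 match to AGAC or its reverse complement GTCT, at position -183 in Smad3 and -159 in Tgfbr2. The match of Tgfbr2 also belonged to the longer form CAGAC. These letters are common: AGAC or GTCT was found in 82.9% of 32851 mouse promoter windows of this length, and CAGAC or GTCTG in 42.2%. A match describes the letters and is not a measured binding site.

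All levels below are log2 intensities relative to each array's 75th percentile, so a value below 0 lies under that percentile. Values among sorted cells use a percentile from the 23 sorted arrays, and values that include whole tissue use one from all 35 arrays. A level of one gene cannot be set against that of another, because probes differ in brightness. On the sorted arrays 12.2% to 35.5% of probes were well above background, and on the whole-tissue arrays 7.80% to 64.7%, the lowest being whole PBMC 1 and the highest whole liver 2. All 10 T cell markers checked, Cd3e and Cd8a among them, were well above background on every sorted array. Hepatocyte markers were also present in liver Trm: 8 of 10 were above background on every array, and their summed level was 1790%, 1390% and 682% of the 75th percentile in liver Trm 3, 5 and 6, against 252% and 228% in liver Trm 1 and 2, 1600% to 1770% in whole liver and 4.09% to 7.83% in Tem. T cell markers summed to 379%, 336% and 589% in liver Trm 3, 5 and 6 and to 709% and 880% in liver Trm 1 and 2. They summed to 388% to 1000% in intestine Trm, a median of 867% and up to 978% in lung Trm, and 837% to 1340% in Tem. Of the 10 T cell markers, 3 were called lower than in Tem in liver Trm, 2 in intestine Trm and none in lung Trm, with none higher. Their median log2 differences from Tem were -0.55 in liver, -0.25 in lung and -0.42 in intestine. In such bulk samples, fewer cells of a type and less RNA per cell cannot be told apart.

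Smad3 was the member that separated resident from blood cells. It was lower in all 3 Trm populations than in Tem, by 5.58-fold in liver (at least 4.63-fold, with 3 of 5 liver arrays well above background), 3.20-fold in lung and 2.38-fold in intestine. A fold written "at least" sets each array of the dimmer group that was not well above background at the lowest signal that was, or at its own where that was higher. Of all 8622 genes tested, 37 (0.429%) were lower in all 3 Trm populations. Of the 8 members measured well enough to be tested among sorted cells, each read by its main probe, no other passed the test against Tem in any organ. The 3 comparisons share the same Tem arrays and are not independent of each other. The median T cell marker sum was also lower in all 3 Trm populations than in Tem. The part of T cell content in the Smad3 differences was not tested. None of the 3 calls held under every alternative tried. All 3 rest on 1 of the 2 Smad3 probes: the other was well above background on no sorted array and was not tested.

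In Tem, the scaled log2 level of Smad3 ran from -2.52 to -1.1 with a median of -2.14. In liver Trm it was -3.76, -3.67, -4.88, -5.33 and -4.83, where -4.88 and -5.33 were not well above background. In lung Trm it ran from -4.56 to -2.87 (median -3.81), and in intestine Trm from -4.18 to -2.44 (median -3.22). No liver or lung array reached the lowest Tem array, whereas the highest intestine array lay just inside the Tem range.

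**Figure D1:**
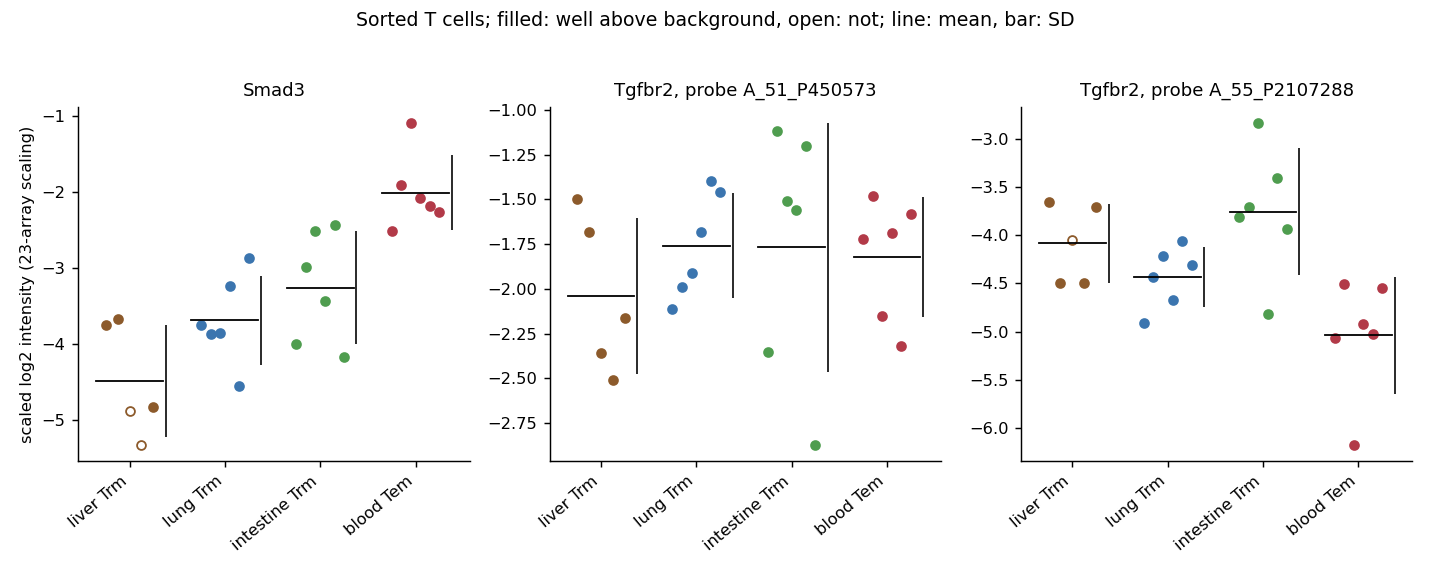
Scaled log2 intensity (23-array scaling) of Smad3 and of both Tgfbr2 probes in the 4 sorted populations; each point is 1 array, open points are not well above background, lines are means and bars SD. Smad3 in every liver and lung Trm array lies below the lowest Tem value of -2.52, while the brighter Tgfbr2 probe overlaps in all groups.

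The fitted difference of Smad3 between liver Trm and Tem was -2.48 ± 0.38 (SE; 95% interval -3.28 to -1.68; limma, adjusted p = 1.4e-04). It was negative on 5 of 5 slides that held both groups, which follows from the lack of overlap and adds no support. Smad3 was the 1 member of 8 called, where 40.3% of the 8622 genes tested were called and 25.4% were lower, so this comparison moved many genes. The difference ran from -2.69 to -2.27 when each array was left out. Without liver Trm 3, 5 and 6, the arrays with the highest hepatocyte signal, it was -1.64 with an adjusted p of 0.0969, from 2 remaining liver arrays. The part of hepatocyte RNA in this difference was not tested beyond that.

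Lung Trm against Tem gave -1.68 ± 0.37 for Smad3 (95% interval -2.44 to -0.92; adjusted p = 0.0104). The difference was negative on 6 of 6 slides, which again follows from the lack of overlap. Here only 3.13% of all genes were called and 1.03% were lower, against 1 of 8 members. Each array could be left out without loss of the call, with adjusted p up to 0.0326. Under quantile normalization the difference was -1.50 with an adjusted p of 0.0648, and on the deposited log2 values -1.49 with 0.0655. Lung epithelial markers summed to 16.4% to 838% of the 75th percentile in lung Trm arrays, against 632% to 840% in whole lung and 11.3% to 24.0% in Tem. Their part in the difference was not tested.

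Intestine Trm against Tem gave the smallest fitted Smad3 difference of the 3, -1.25 ± 0.37 (95% interval -2.01 to -0.49; adjusted p = 0.0215), negative on 6 of 6 slides. Smad3 was again 1 of 8 members, where 17.7% of all genes were called and 9.59% were lower. The call was lost without intestine Trm 1 (-1.1, adjusted p = 0.0559), without intestine Trm 6 (-1.07, 0.0579) and without blood Tem 3 (-1.06, 0.0539). It was also lost under quantile normalization (-1.23, adjusted p = 0.0521), with no filter on dim probes (adjusted p = 0.0514) and without the arrays that stood apart in background (-1.01, 0.0563). Gut epithelial markers summed to 50.2% to 368% in intestine Trm, 1270% to 3040% in whole intestine and 4.33% to 9.50% in Tem, and their part was not tested.

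**Figure D2:**
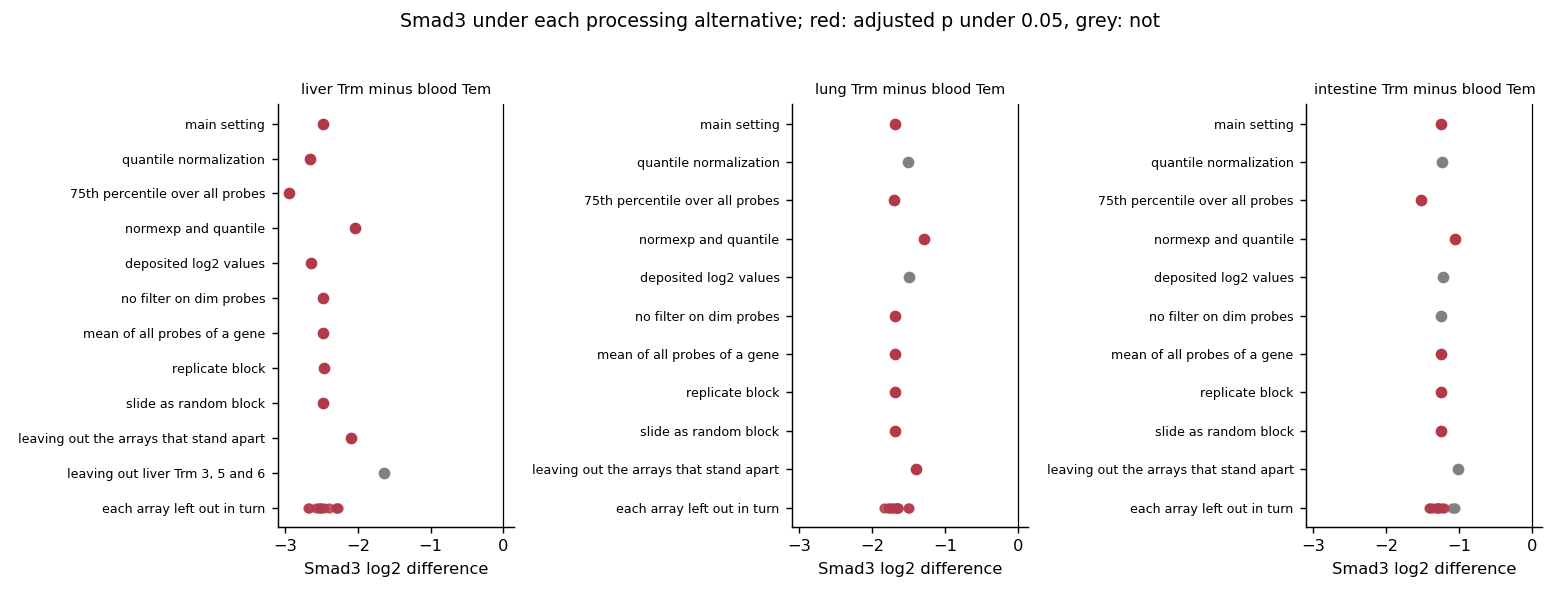
Fitted Smad3 log2 difference (x axis) of each Trm population from Tem under every processing alternative and with each array left out (y axis); red points have an adjusted p under 0.05 and grey points do not. Every point is below 0, the main values are -2.48, -1.68 and -1.25, and grey points are most frequent in intestine.

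Among the Trm populations themselves, Smad3 was at least 1.95-fold higher in intestine than in liver (1.23 ± 0.38, 95% interval 0.43 to 2.03; limma, adjusted p = 0.0386), positive on 4 of 5 slides. It was the 1 member of 8 called there, where 11.7% of all genes were called and 8.87% were higher. Leaving out any 1 of liver Trm 3, 5 or 6 gave 1.08, 1.02 and 1.15 with adjusted p of 0.107, 0.127 and 0.103, and leaving out all 3 gave 0.44 with 0.789. The call was also lost without intestine Trm 2 (1.18, adjusted p = 0.0592), 3 (1.08, 0.0965), 4 (1.27, 0.0543) or 5 (1.07, 0.0973). Lung and liver Trm differed by 0.80 ± 0.38 (95% interval 0.00 to 1.60; adjusted p = 0.124), and intestine and lung Trm by 0.43 ± 0.37 (-0.33 to 1.19; 0.516). No member was called in the lung against liver comparison (17.8% of all genes called) or in intestine against lung (9.52%). Under quantile normalization Smad3 passed in lung against liver, at 1.16 with an adjusted p of 0.0454. The order of Smad3 among sorted cells was thus Tem, intestine, lung and liver, and neighbours among the 3 Trm populations overlapped.

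The other receptor-regulated SMAD, Smad2, did not pass the test against Tem. Its single probe was dim among sorted cells: it was well above background on 1 of 5 liver Trm, 3 of 6 lung Trm, 2 of 6 intestine Trm and 5 of 6 Tem arrays. Its level in Tem ran from -6.35 to -4.45 (median -5.43), and the medians were -5.63, -5.83 and -5.79 in liver, lung and intestine Trm. The fitted differences were -0.32 ± 0.31, -0.39 ± 0.30 and -0.31 ± 0.30 in that order, and the intervals -0.97 to 0.33, -1.01 to 0.23 and -0.93 to 0.31 allow changes of up to about 1 log2 unit down. Quantile normalization brought liver Trm against Tem past the threshold, at -1.02 with an adjusted p of 0.0317.

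The ligand gene Tgfb1 lay at -5.17 to -3.49 in Tem (median -4.34). It was -4.29, -4.52, -4.43, -5.11 and -4.61 in liver Trm, where only the first 2 values were well above background, -5.92 to -4.41 in lung Trm (median -4.98) and -6.05 to -4.49 in intestine Trm (median -4.78). All 4 populations overlapped. The differences from Tem were -0.19 ± 0.33 in liver (adjusted p = 0.637), -0.67 ± 0.31 in lung (0.310) and -0.55 ± 0.31 in intestine (0.241). The lung difference was negative on 6 of 6 slides and its 95% interval was -1.32 to -0.02, but it failed the correction over all genes. Scaling to the 75th percentile of all probes gave -0.82 in intestine with an adjusted p of 0.0457.

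Tgfbr2, the receptor that binds the ligand first, was well above background on every sorted array with its brighter probe, A_51_P450573. That probe read -2.32 to -1.48 in Tem (median -1.70), -2.11 to -1.40 in lung Trm (median -1.80), -2.87 to -1.12 in intestine Trm (median -1.54), and -1.50, -1.68, -2.36, -2.51 and -2.16 in liver Trm. The groups lay on top of each other. The differences from Tem were -0.22 ± 0.30 in liver (95% interval -0.83 to 0.39; adjusted p = 0.545), 0.06 ± 0.28 in lung (-0.52 to 0.65; 0.929) and 0.05 ± 0.28 in intestine (-0.53 to 0.64; 0.915).

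The second Tgfbr2 probe, A_55_P2107288, gave another picture. It read -6.17 to -4.51 in Tem, -4.82 to -2.84 in intestine Trm and -3.66, -4.50, -4.05, -4.50 and -3.71 in liver Trm, with the third of these liver values not well above background. Fitted on its own, it was higher than Tem by 0.96 ± 0.32 in liver (adjusted p over probes = 0.0235) and by 1.28 ± 0.31 in intestine (0.00556), and by 0.61 ± 0.31 in lung, which did not pass (0.367). Over all probes, 39.9%, 17.6% and 2.95% were called in liver, intestine and lung. Probes never above background were themselves higher than in Tem, by a median of 1.33 in liver, 0.71 in intestine and 0.24 in lung. This dimmer Tgfbr2 probe was well above background on 4 of 5 liver Trm arrays and every other sorted array. The part of that shift in its differences was not tested. The probes of this receptor disagree, and no direction is given for the gene between Trm and Tem.

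Tgfbr1, the partner receptor, could not be compared among sorted cells. Its brighter probe was well above background on 2 of 6 Tem arrays, 1 of 6 lung Trm arrays and no liver or intestine Trm array, and its other probe on none of the 35 arrays. The corepressor Ski was well above background on only 1 array of all 35, blood Tem 3. These 2 members have no fold here, and low signal on these probes does not show that the genes are silent.

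Smad4, the common partner of SMAD2 and SMAD3, was most uneven in liver. It read -2.52, -1.97, -4.97, -3.20 and -3.92 in liver Trm, where the third value was not well above background, against -2.88 to -1.53 in Tem (median -2.43). Lung Trm ran from -3.19 to -2.17 and intestine Trm from -3.42 to -2.21, both within or near the Tem range. The liver difference was -0.95 ± 0.39 (95% interval -1.77 to -0.13) and did not pass (adjusted p = 0.0578), and the other Smad4 probe gave -0.77 ± 0.35 (0.0766). Without liver Trm 2 the difference was -1.28 with an adjusted p of 0.00960, whereas without liver Trm 3, 5 and 6 it was 0.18.

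The feedback inhibitor Smad7 was brightest in lung Trm and Tem and dimmest in intestine Trm. It ran from -5.90 to -3.49 in lung Trm, from -5.57 to -4.56 in Tem, and from -7.59 to -5.03 in intestine Trm, where 2 of 6 arrays were well above background. Liver Trm split into -4.13 and -4.34 for replicates 1 and 2 and -5.81, -7.33 and -7.26 for replicates 3, 5 and 6, none of the last 3 being well above background. Intestine Trm minus lung Trm was -1.56 ± 0.55 (95% interval -2.69 to -0.43), negative on 6 of 6 slides, with an adjusted p of 0.0712. Intestine Trm minus Tem was -1.35 ± 0.55 (-2.48 to -0.23; adjusted p = 0.0909). Without intestine Trm 5 both passed, at -1.83 (adjusted p = 0.0418) and -1.63 (0.0460), and the first also passed without lung Trm 4, at -1.77 (0.0498).

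The corepressor gene Skil was tightest in intestine Trm, at -3.74 to -3.22, whereas it spread from -5.79 to -2.90 in lung Trm and from -5.88 to -3.66 in Tem. In liver Trm it was -3.53, -3.43, -5.56, -6.02 and -5.31, again with replicates 3, 5 and 6 low and not well above background. Intestine Trm exceeded Tem by 1.01 ± 0.50 (95% interval -0.03 to 2.05; adjusted p = 0.176) and liver Trm by 1.22 ± 0.52 (0.13 to 2.31; 0.136), and neither passed. Without liver Trm 3, 5 and 6 the second was -0.08.

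Tgif1, a homeodomain corepressor, was well above background on every sorted array. It ran from -1.98 to -1.03 in intestine Trm, -3.30 to -1.42 in lung Trm and -3.56 to -1.49 in Tem, and was -1.78, -1.42, -2.93, -3.28 and -3.48 in liver Trm. The 4 ranges overlapped. Intestine Trm was above liver Trm by 1.15 ± 0.44 (95% interval 0.25 to 2.05; adjusted p = 0.0918) and above Tem by 0.86 ± 0.42 (-0.00 to 1.72; 0.165). Without liver Trm 2 the first passed, at 1.44 with an adjusted p of 0.0292.

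**Figure D3:**
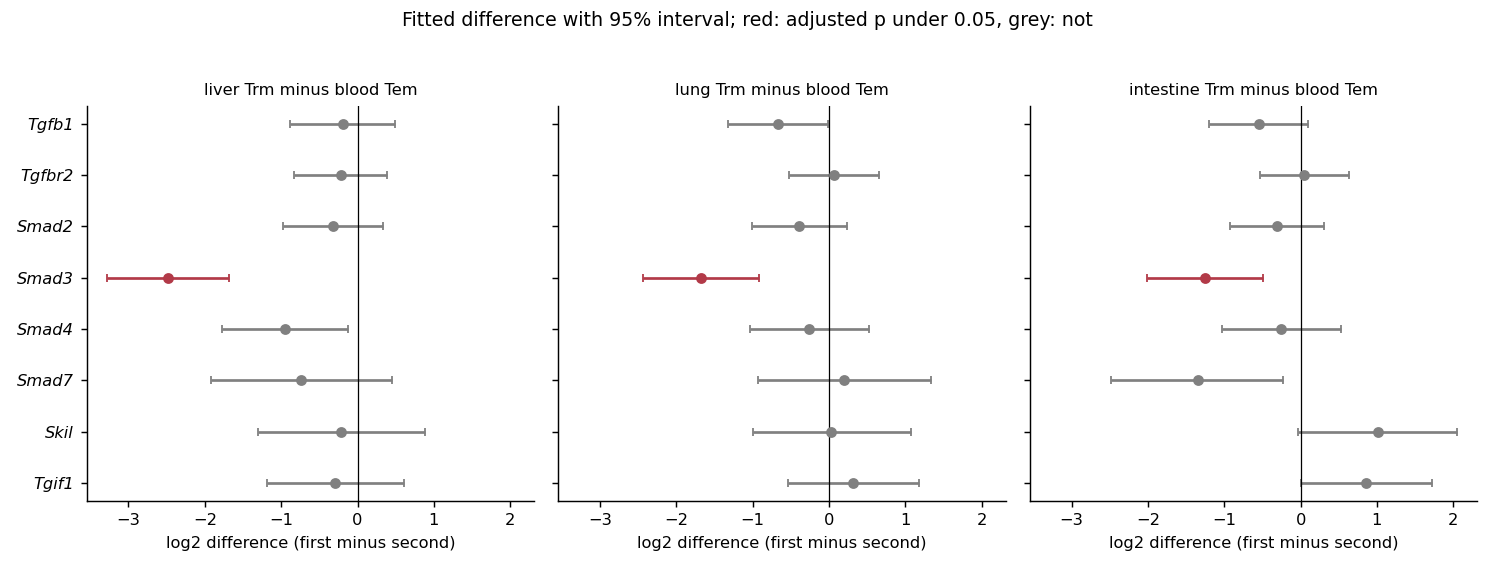
Fitted log2 difference from Tem (x axis) with its 95% interval for the 8 tested members in liver, lung and intestine Trm; red marks an adjusted p under 0.05. Smad3 is the red point in each panel, at -2.48, -1.68 and -1.25.

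The uncalled members spread from -0.95 to -0.19 in liver, -0.67 to 0.32 in lung and -1.35 to 1.01 in intestine against Tem. The median over the 8 tested members was -0.30, -0.11 and -0.28, beside -0.28, -0.10 and -0.03 over all genes tested.

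Set against the tissue they came from, the sorted cells had less Smad2 and more Tgif1 in all 4 comparisons. Smad2 was at least 21.1-fold lower in liver Trm than in whole liver, at least 31.6-fold lower in lung Trm, at least 4.87-fold lower in intestine Trm and at least 15.5-fold lower in Tem than in PBMC, since 1 of 5, 3 of 6, 2 of 6 and 5 of 6 sorted arrays were well above background. Tgif1 was at least 6.27-fold higher in liver, 10.4-fold in lung, 14.3-fold in intestine and at least 3.89-fold in blood, where 2 of 3 whole liver and 2 of 3 PBMC arrays were well above background. All sorted arrays were scanned in one session and all whole-tissue arrays in another, so cell content and scan session cannot be told apart in these differences. T cell markers summed to 37.1% to 253% of the 75th percentile in whole tissue and 336% to 1340% in sorted cells.

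Smad2 read -1.34, -1.40 and -1.46 in whole liver, -1.71, -1.28 and -0.97 in whole lung, -0.13, -1.72 and -3.30 in PBMC, and -2.68, -3.52 and -5.30 in whole intestine, on the 35-array scale. The same probe gave means of -6.50 ± 0.55 (SD, n = 5) in liver Trm, -6.35 ± 0.39 (n = 6) in lung Trm, -6.29 ± 0.38 (n = 6) in intestine Trm and -5.79 ± 0.69 (n = 6) in Tem. No sorted group overlapped its tissue. The differences were -5.10 ± 0.53 in liver (limma, adjusted p = 4.7e-09), -5.03 ± 0.52 in lung (2.5e-09), -2.46 ± 0.52 in intestine (2.8e-04) and -4.07 ± 0.52 in blood (8.7e-07).

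Tgif1 had means of -6.79 ± 1.48 in whole liver, -5.92 ± 0.42 in whole lung, -5.86 ± 1.23 in whole intestine and -5.40 ± 1.96 in PBMC (SD, n = 3 each), beside -3.38 ± 1.17, -2.54 ± 0.64, -2.03 ± 0.42 and -2.69 ± 0.95 in the matching sorted cells. The 3 Trm groups lay wholly above their organs. Tem overlapped PBMC, whose arrays read -7.62, -3.87 and -4.72 with the first not well above background. The differences were 3.41 ± 0.71 in liver (adjusted p = 2.8e-04), 3.38 ± 0.69 in lung (1.3e-04), 3.83 ± 0.69 in intestine (3.5e-05) and 2.71 ± 0.69 in blood (0.00128). Without whole PBMC 1 the last was 0.85 with an adjusted p of 0.294.

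Being lower or higher in all 4 comparisons was uncommon over the whole table: 207 of 10636 genes (1.95%) were lower in all 4 and 328 (3.08%) were higher. By the mean of the 4 differences Smad2 ranked 174 from the lowest.

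**Figure D4:**
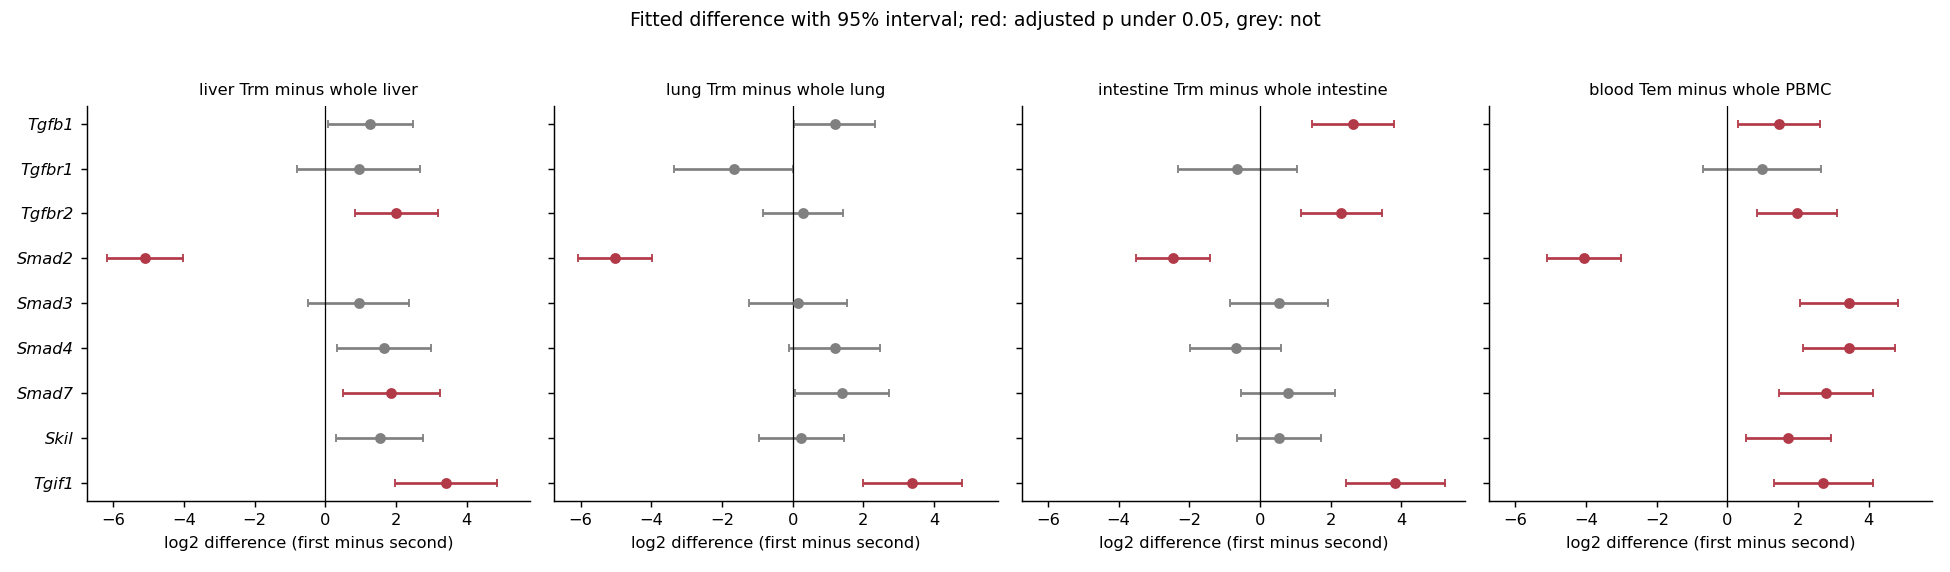
Fitted log2 difference of each sorted population from its whole tissue (x axis) with its 95% interval for the 9 tested members; red marks an adjusted p under 0.05. Smad2 lies left of 0 and Tgif1 right of 0 in all 4 panels, with Smad2 at -5.10, -5.03, -2.46 and -4.07.

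Tgfbr2 was higher in liver Trm than in whole liver (2.00 ± 0.58, 4.01-fold; adjusted p = 0.00666) and higher in intestine Trm than in whole intestine (2.30 ± 0.56, 4.93-fold; 0.00148), with no overlap. In whole lung the arrays read -2.36, -3.11 and -2.41, close to lung Trm (mean -2.33), and the difference was 0.29 ± 0.56 (95% interval -0.84 to 1.43; adjusted p = 0.719). The second Tgfbr2 probe was well above background on 1 of 3 whole liver arrays and on no whole lung or whole intestine array, so only bounds can be given. By this probe the sorted cells were at least 2.23-fold higher in liver (limma, adjusted p over probes = 0.0158), at least 4.37-fold in lung (6.2e-05) and at least 7.53-fold in intestine (9.3e-08). Over all probes 32.2%, 42.2% and 32.3% were called in these 3 comparisons.

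Tgfbr1 had its one fully measured group in whole lung, at -6.15, -6.22 and -6.29. Lung Trm minus whole lung was -1.67 ± 0.83 (95% interval -3.35 to 0.00), which did not pass (adjusted p = 0.106). Tgfb1 was not well above background on any whole intestine array, and intestine Trm exceeded it at least 3.23-fold (adjusted p = 4.3e-04). Tgfb1 in liver and lung Trm exceeded whole tissue by 1.27 ± 0.59 (adjusted p = 0.10) and 1.19 ± 0.57 (0.0955), neither called. Apart from single arrays left out, 5 of 10 alternatives in liver and 4 of 8 in lung kept Tgfb1 uncalled. The rest called it higher, with adjusted p (limma) down to 2.2e-04 and 0.00674. Without whole liver 2, whose Tgfb1 value of -4.36 stood above -8.34 and -7.29 for the other two, the liver difference was 2.42 with an adjusted p of 8.7e-04, and Smad4 (2.20, 0.0247) and Skil (1.93, 0.0349) passed as well. The Tgfb1 difference in lung passed without lung Trm 5 (1.41, 0.0476).

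Smad3 did not pass the test between Trm cells and their organs: the differences were 0.95 ± 0.71 in liver (adjusted p = 0.352), 0.15 ± 0.68 in lung (0.890) and 0.54 ± 0.68 in intestine (0.553). Their 95% intervals reached from -0.49 to 2.38, -1.24 to 1.54 and -0.85 to 1.93. Over the 8 groups Smad3 was highest in Tem, followed by intestine Trm, lung Trm, whole intestine, whole lung, liver Trm, PBMC and whole liver, each overlapping the next.

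Smad4 was at -4.25, -4.38 and -4.53 in whole lung, and lung Trm lay above it at -3.67 to -2.95, yet the difference of 1.19 ± 0.64 did not pass (adjusted p = 0.139). In liver it was 1.66 ± 0.66 (adjusted p = 0.0501), where the other Smad4 probe gave -0.09. The liver difference passed without liver Trm 3 (2.31) and without liver Trm 6 (1.82). Skil in liver Trm exceeded whole liver by 1.54 ± 0.61 (adjusted p = 0.0508), and it passed without liver Trm 3 (1.96), 5 (1.87) or 6 (1.67). Of 10 alternatives other than single arrays left out, 3 kept Smad4 uncalled in liver and 4 kept Skil uncalled. The rest called them higher. Smad7 was not well above background on any whole liver array and passed in liver (1.87 ± 0.68; adjusted p = 0.0309), but no fold is given there. The Smad7 call was lost without liver Trm 1 (1.44, adjusted p = 0.110), liver Trm 2 (1.40, 0.115), whole liver 1 (1.57, 0.141) or whole liver 3 (1.75, 0.106). It was also lost under quantile normalization, on the deposited log2 values and with no filter on dim probes (limma, adjusted p up to 0.120).

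By count, 3 of 9 members were higher and 1 lower in liver Trm than in whole liver, where 32.3% of 10636 genes were called (8.53% higher, 23.7% lower). In lung 1 was higher and 1 lower (41.5% called, 15.7% higher, 25.8% lower), and in intestine 3 were higher and 1 lower (31.8% called, 11.7% higher, 20.1% lower).

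Blood Tem against PBMC moved the most members. Of 9 tested, 7 were higher and only Smad2 lower, where 55.2% of all genes were called and 43.9% were higher. Smad3 was at least 6.45-fold higher (3.44 ± 0.68; adjusted p = 1.2e-04) and Smad4 at least 6.51-fold higher (3.44 ± 0.64; 5.8e-05), where 2 of 3 and 1 of 3 PBMC arrays were well above background, with the other Smad4 probe at 1.66 ± 0.49 (0.00438). Smad7 was not well above background on any PBMC array and was at least 1.47-fold higher in Tem (adjusted p = 6.1e-04). Tgfb1 (1.45 ± 0.57, at least 1.63-fold; adjusted p = 0.0299), Tgfbr2 (1.97 ± 0.56, at least 2.77-fold; 0.00327) and Skil (1.72 ± 0.59, at least 1.86-fold; 0.0133) were also higher, with 2 of 3, 2 of 3 and 1 of 3 PBMC arrays well above background.

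Whole PBMC 1 carried much of this. Only 7.80% of its probes were well above background, and it read -7.60 for Smad3, -7.58 for Smad4 and -6.87 for Tgfbr2, against -4.68 and -5.27, -4.79 and -6.26, and -2.53 and -3.19 on the other two arrays. Without it, Tgfb1 (0.02, adjusted p = 0.978), Tgfbr2 (-0.12, 0.819), Skil (0.50, 0.554) and Tgif1 (0.85, 0.294) were no longer called, whereas Smad3 (1.80) and Smad4 (2.00) still passed. The Tgfb1 call also ended without blood Tem 2 (1.28, adjusted p = 0.0628). The second Tgfbr2 probe gave 0.90 ± 0.43 (adjusted p over probes = 0.0787, where 54.6% of probes were called), and under quantile normalization the brighter probe gave 1.00 (adjusted p = 0.0594).

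**Figure D5:**
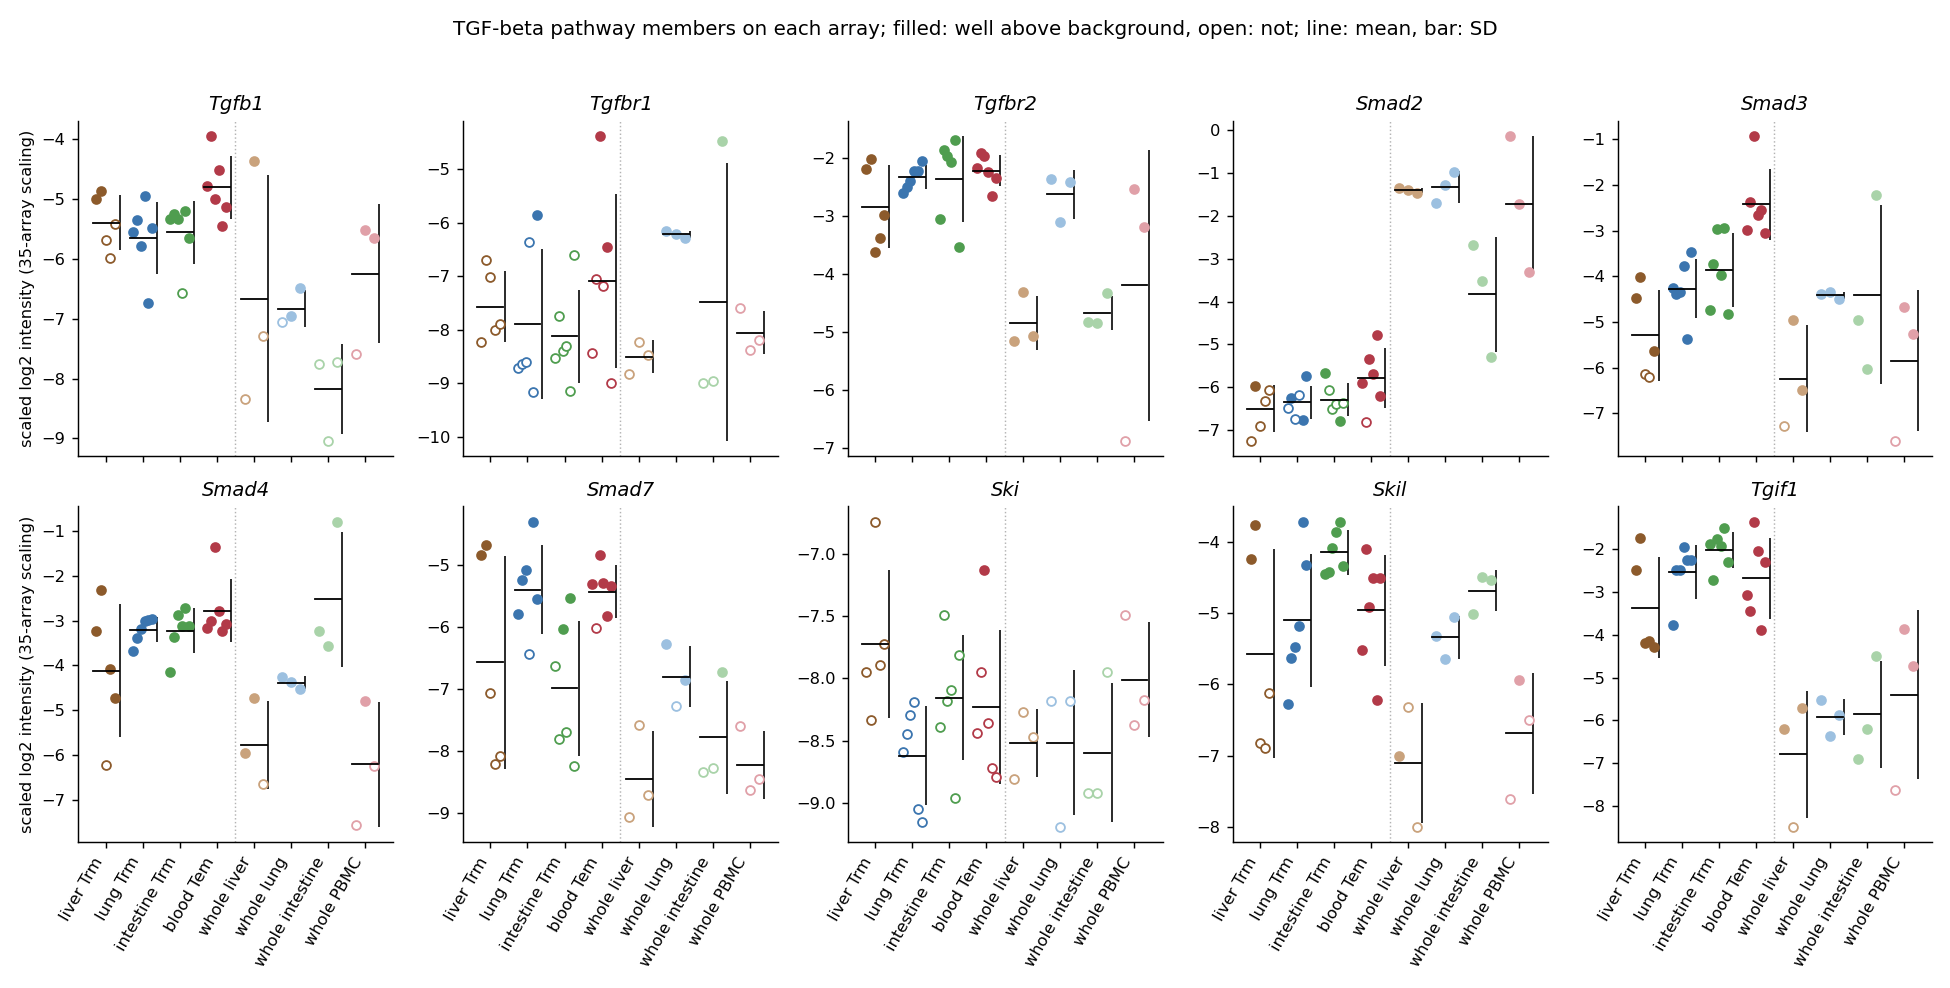
Scaled log2 intensity (35-array scaling, y axis) of the 10 members, one probe each, on every array of the 8 groups; filled points are well above background, lines are means and bars SD. Smad2 lies at -5.30 or above on every whole-tissue array and Ski is open on all but 1 array.

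The rest of the pathway was read from lists of its known parts. Of 16 genes that make, store or release TGF-beta, 8 were tested among sorted cells. Against Tem, 2 were higher and 2 lower in liver Trm, none higher and 1 lower in lung Trm, and 4 higher and 2 lower in intestine Trm. Of all genes, 15.0%, 2.10% and 8.10% were called higher in these 3 comparisons and 25.4%, 1.03% and 9.59% lower, so the 2 of 8 lower in liver is near the share over all genes. The medians over the list were 0.87, 0.03 and 1.72 beside the medians over all genes given above. Furin, the protease that cuts the TGF-beta precursor, was 3.28-fold higher in intestine Trm than in Tem (1.71 ± 0.30; adjusted p = 4.6e-04), 2.72-fold higher than in liver Trm (1.44 ± 0.32; 0.00400) and 2.96-fold higher than in lung Trm (1.57 ± 0.30; 0.00156). Ltbp4, which tethers latent TGF-beta to the matrix, was higher than Tem in liver Trm (5.47 ± 0.95; adjusted p = 4.7e-04) and in intestine Trm (5.20 ± 0.91; 4.3e-04). As 1 of 6 Tem arrays was well above background, the folds are at least 15.0 and at least 12.4. Its second probe gave at least 1.83-fold and at least 2.18-fold, but lay close to background. That probe was well above background on 1 of 5 liver Trm, 3 of 6 intestine Trm and 0 of 6 Tem arrays. The 10 fibroblast and smooth muscle markers summed to 14.2% to 491% of the 75th percentile in intestine Trm, 8.74% to 50.8% in liver Trm, 6.25% to 29.9% in lung Trm and 4.32% to 5.91% in Tem. Of these 10, 1 (Des), 7, 7 and 8 were well above background on no array of the group, in that order. The 10 vascular endothelial markers summed to a median of 37.8% and up to 261% in intestine Trm, 12.3% to 61.7% in liver Trm, 9.67% to 88.3% in lung Trm and 5.89% to 8.79% in Tem. Of these, 2 (Tek and Emcn), 4, 3 and 7 were well above background on no array of the group, in that order. The part of these cell types was not tested. With each array left out in turn, the counts ran from 1 to 3 higher and stayed at 2 lower in liver, from 0 to 1 in either direction in lung, and from 3 to 4 higher and 0 to 2 lower in intestine. Without any 1 of liver Trm 3, 5 or 6 or of blood Tem 1, 2, 3 or 4 the higher count in liver was 1, Ltbp4.

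Of the accessory, activin and BMP receptors, 5 of 12 listed were tested among sorted cells. In liver Trm 2 were higher than in Tem, in lung Trm 1, and in intestine Trm none, with none lower, beside the shares of all genes just given, and the medians were 0.99, 0.50 and 0.70. The liver count was 1, Eng, without any 1 of liver Trm 3, 5 or 6 or blood Tem 3, and the lung count was 0 without any single lung Trm array or without blood Tem 2, 3, 4 or 6. Endoglin (Eng), a co-receptor of endothelial cells, was at least 3.72-fold higher in liver Trm (1.97 ± 0.41; adjusted p = 0.00194), with 3 of 6 Tem arrays well above background. The 9 markers of liver endothelial and Kupffer cells summed to 16.7% to 89.0% of the 75th percentile in liver Trm, 1.87% to 6.93% in Tem and 58.3% to 132% in whole liver, with 2 of the 9, Lyve1 and Timd4, well above background on no liver Trm array and 6 of the 9 on no Tem array. The vascular endothelial sums of both groups are given above, and the part of these cells was not tested. Tgfbr3, the betaglycan co-receptor, was 3.21-fold lower in lung than in liver Trm (-1.68 ± 0.34; adjusted p = 0.00312).

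SMAD partners and turnover enzymes, 11 of 18 tested, were called lower than Tem in 5 cases in liver Trm, none in lung Trm and 3 in intestine Trm, beside 25.4%, 1.03% and 9.59% of all genes. The medians were -0.27, -0.84 and -0.50. Rnf111 (Arkadia), the ligase that removes SMAD7 and SKIL, was at least 2.19-fold lower in liver Trm (-1.98 ± 0.38; adjusted p = 0.00118) and at least 3.52-fold lower in intestine Trm (-2.04 ± 0.37; 5.3e-04), where 1 of 5 and 2 of 6 arrays were well above background. Usp4, a deubiquitinase of the type I receptor, was at least 2.46-fold lower in liver Trm (-1.72 ± 0.36; adjusted p = 0.00203), with 4 of 5 arrays well above background. None of the 11 was called higher in liver or lung Trm, and 1 was in intestine Trm, where 8.10% of all genes were higher. It was Fkbp1a, whose protein guards the type I receptor. Its brighter probe passed there (3.90 ± 0.44; adjusted p = 1.7e-06) but its other probe gave -0.46 (0.245), so no direction is given.

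Of genes known to rise with TGF-beta, 10 of 12 listed were tested. In liver Trm 4 were higher than in Tem, in lung Trm 1 and in intestine Trm 4, with none lower, beside 15.0%, 2.10% and 8.10% of all genes higher. The medians were 1.1, 1.18 and 1.19. Tgfbi, a matrix protein named for its induction by TGF-beta, was at least 8.08-fold higher in lung Trm (3.60 ± 0.81; adjusted p = 0.0123), at least 8.05-fold higher in intestine Trm (3.60 ± 0.81; 0.00364) and at least 4.15-fold higher in liver Trm (2.64 ± 0.85; 0.0188), where the call ended without liver Trm 5 (2.38, 0.0539). It was well above background on 1 of 6 Tem arrays and 3 of 5 liver Trm arrays. Macrophage and monocyte markers summed to 62.9% to 398% in lung Trm, 49.6% to 115% in intestine Trm, 38.7% to 97.5% in liver Trm and 45.7% to 185% in Tem. Of the 9 with a probe, 1 (Ccr2), 5, 4 and 4 were well above background on no array of the group, in that order. Their part was not tested. Without blood Tem 3 the liver count was 2, Tgfbi and Ccn2. Under normexp with quantile normalization the lung value was 1.96 with an adjusted p of 0.0949. Cdkn1a, the cell cycle inhibitor p21, was at least 9.55-fold higher in intestine Trm (3.78 ± 0.71; adjusted p = 7.9e-04), with 2 of 6 Tem arrays well above background.

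Of 11 genes known to fall with TGF-beta in T cells, 10 were tested, and 3, 4 and 1 were lower than Tem in liver, lung and intestine Trm while 1, 2 and 2 were higher. Beside the 25.4%, 1.03% and 9.59% of all genes called lower, the lower counts in liver and intestine are near the background. Of all genes, 15.0%, 2.10% and 8.10% were called higher. The medians were -1.06, -1.97 and 0.95. With each array left out, the lower counts ran from 2 to 3, 3 to 4 and 0 to 2, and the higher counts from 1 to 2, 1 to 2 and 2 to 3. The genes named next against Tem are from those called lower, and those called higher are not named. Granzyme A (Gzma) was 14.0-fold lower in lung Trm (-3.81 ± 0.57; adjusted p = 2.6e-04) and 5.31-fold lower in liver Trm (-2.41 ± 0.60; 0.00593). Granzyme B (Gzmb) was at least 10.8-fold lower in lung Trm (-4.89 ± 0.91; adjusted p = 0.00280) and at least 5.18-fold lower in liver Trm (-3.64 ± 0.96; 0.00786), where 2 of 6 lung and 2 of 5 liver arrays were well above background. Intestine Trm went the other way relative to the other organs. Against liver Trm 3 of 10 were higher and none lower, where 8.87% of all genes were higher. Against lung Trm 5 of 10 were higher and none lower, where 5.27% of all genes were higher. Gzma was 16.2-fold (4.01 ± 0.57; adjusted p = 7.0e-05) and Gzmb at least 33.5-fold higher (6.53 ± 0.91; 5.7e-05) than in lung Trm. Tbx21, the T-bet gene, was 5.23-fold lower in lung than in liver Trm (-2.39 ± 0.51; adjusted p = 0.00440).

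Without liver Trm 3, 5 and 6, which leaves 2 liver arrays, Gzma still passed in liver against Tem (-3.55, adjusted p = 0.0369) and the other liver differences named in these lists kept their direction but not their call: Ltbp4 was 4.51 (adjusted p = 0.117), Eng 1.52 (0.176), Rnf111 -1.28 (0.153), Usp4 -1.16 (0.142), Tgfbi 1.70 (0.517) and Gzmb -2.52 (0.401). Furin in intestine against liver Trm was then 1.20 (adjusted p = 0.138), Tgfbr3 in lung against liver -1.11 (0.421) and Tbx21 -1.90 (0.398).

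Against whole tissue, both tested SMADs of the BMP pathway, Smad5 and the inhibitory Smad6, were lower in lung and intestine Trm. Of all genes, 25.8% and 20.1% were lower there. Among sorted cells 1 of the 2, Smad5, passed the filter on dim probes. Smad6 entered only through a whole-tissue group, so the filter favoured a lower value in Trm for it. In liver Trm 1 of the 2 was lower, where 23.7% of all genes were. In Tem against PBMC 1 was higher and none lower, where 43.9% of all genes were higher and 11.3% lower. Smad2, in contrast, was lower in all 4 comparisons. Smad6 was at least 21.2-fold lower in lung Trm than in whole lung (-4.95 ± 0.66; adjusted p = 2.9e-07) and at least 2.35-fold lower in intestine Trm than in whole intestine (-2.28 ± 0.66; 0.00734), with 1 of 6 Trm arrays well above background in each organ. Smad5 was at least 4.78-fold lower in lung Trm (-2.72 ± 0.64; adjusted p = 6.7e-04) and at least 2.69-fold lower in intestine Trm (-2.77 ± 0.64; 8.5e-04), with 3 of 6 and 1 of 6. Of 14 ligand and activator genes tested, 10 were lower in lung Trm than in whole lung and none higher, where 25.8% of all genes were lower. Only 8 of these genes passed the filter on dim probes among sorted cells, so the rest entered only through a whole-tissue group. For genes that entered that way the filter favoured a lower value in Trm, so the count is not a free test against that share. Among them were Tgfb3 (-4.45 ± 0.69, at least 7.64-fold; adjusted p = 2.7e-06) and Ltbp4 (-5.41 ± 0.95, at least 32.7-fold; 1.8e-05), with 1 of 6 and 5 of 6 lung Trm arrays well above background. The count was 6 without any single whole lung array, when 4 of the 10, Tgfb3 among them, no longer passed the filter on dim probes or the test. Tgif2, the close relative of Tgif1, was lower by 6.01 ± 1.02 in lung Trm than in whole lung (adjusted p = 1.2e-05), the direction opposite to Tgif1, but its second probe gave 0.59 (0.317).

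The genes whose levels ran most like each member over the 23 sorted arrays were listed by Pearson correlation, as a description over arrays that also share depth and group. For Smad3 they were Lrrc47 (r = 0.92), Snx12 (0.91) and Cyb5r4 (0.90). For Skil they were Gna13 (0.91), Arih1 (0.89) and Slc16a6 (0.88), and for Smad4 Smg6 (0.89), Rybp (0.88) and Nop58 (0.88). Smad7 ran with Abtb2 (0.89), Polr2h (0.85) and Cep97 (0.84), and Tgif1 with Snhg12 (0.86), Fbxo34 (0.86) and Tnip1 (0.85). Tgfbr2 ran with Dnaja2 (0.85), Hnrnpab (0.82) and Bcl10 (0.80), and Tgfb1 with Ahsa1 (0.79), Septin11 (0.79) and Thap3 (0.77). The dim Smad2 had the weakest likeness, to Napb (0.61), Fam126b (0.56) and Tti2 (0.55).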

How the data were processed

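The authors deposited intensity values from the scanner, background-subtracted by Feature Extraction 11.0.1.1 per the file headers (10.7, with Partek, in the submitters' processing notes). They also deposited log2 values. Per the labels' protocols, RNA was amplified in 2 rounds before labelling. The deposited log2 values equal a quantile normalization of the intensities (largest median absolute difference 0.00053).

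Here, log2 intensities were scaled to the 75th percentile over the probes marked well above background throughout a fit (4045 for 23 sorted arrays, 1342 for all 35). A probe needed that mark on 3 or more arrays of some group, and each gene was read by its brightest probe. Groups were compared with limma 3.58.1 in R 4.3.3, two-sided, with Benjamini-Hochberg adjustment over 8622 (sorted) or 10636 (all arrays) genes, and called at an adjusted p under 0.05. The code was tested on simulated data. Accessions were named through RefSeq tables for GRCm38.p6, which left 11921 probes unnamed and not used here. In a fold "at least", arrays of the dimmer group not well above background enter at the lowest signal that was on that array, or at their own if higher. The number of arrays limits the precision.

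The members and lists were chosen with earlier results of these data known. Named were all members and, from each further list, called genes among the 4 with the largest difference in a comparison, preferring those that held with each array left out, a preference set after their values were seen. The alternatives were quantile normalization, scaling over all probes, normexp (offset 50, on median columns), the deposited values, no filter, the mean of probes, blocks for replicate number and slide, and leaving out arrays. Leaving out groups of arrays and fitting each probe were added after seeing the data.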

Additional observations from a re-analysis of the deposited data

Results flagged for a closer look

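Of 32 groups of member values examined for an array far from the rest, 3 had one, where chance gives about 1 in 20 groups. Smad4 in intestine Trm 1 was -3.42, below the other intestine arrays at -2.62 to -2.21. Tgfb1 in intestine Trm 4 was -6.05, below -4.99 to -4.49, and was not well above background there. Tgif1 in lung Trm 1 was -3.30, below -2.0 to -1.42. The Smad3 difference from Tem was unequal between 2 organs: intestine Trm exceeded liver Trm by 1.23 on the log2 scale in a direct test.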

How the results depend on the processing

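Of 419 member differences under the other settings 355 kept their direction and side of the threshold. The number of members called in liver Trm against Tem, 1 in the report, was 2 under quantile normalization, scaling over all probes, the deposited values and the mean of probes, 3 with no filter, and 0 without liver Trm 3, 5 and 6. In lung Trm against Tem it was 0 under quantile normalization and on the deposited values. In intestine Trm against Tem it was 0 under those 2 settings, with no filter and without the arrays that stood apart (liver Trm 3, blood Tem 3, whole liver 2, whole PBMC 1), and 2 with scaling over all probes. In lung against liver Trm it was 1 under quantile normalization, scaling over all probes, the deposited values and no filter. In intestine against liver Trm it was 0 with no filter, with the replicate block, without the arrays that stood apart and without liver Trm 3, 5 and 6. Against whole liver it was 7 with scaling over all probes and 8 without the arrays that stood apart, and Tem against PBMC gave 4 without them.

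Leaving out each array in turn gave 1 to 2 members in liver, 1 to 1 in lung and 0 to 2 in intestine against Tem, 0 to 1 in lung against liver, 0 to 2 in intestine against liver and 0 to 1 in intestine against lung. Against whole tissue it gave 3 to 7 in liver, 2 to 3 in lung, 4 to 4 in intestine and 4 to 8 in blood. Tgfbr1 in lung against whole lung had no value with any whole lung array left out, because its probe then failed the filter.

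Tgfbr2 changed sign in liver against Tem, to 0.01 under quantile normalization and on the deposited values, 0.37 with the mean of probes and 0.29 without liver Trm 3, 5 and 6. In intestine against Tem it was -0.22 with scaling over all probes and -0.08 to 0.27 over single arrays left out, in lung -0.04 to 0.13, and in Tem against PBMC -0.08 without the arrays that stood apart and -0.12 to 2.81 over single arrays. Without liver Trm 3, 5 and 6, Tgfb1 (0.05) and Smad4 (0.18) in liver against Tem and Skil (-0.08) in intestine against liver changed sign. The causes were not tested.

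Scaling moves all genes together: probes never above background differed by a median of 1.33 between liver Trm and Tem, 0.24 for lung and 0.71 for intestine, so dim values carry little order. Replicate numbers did not pair the samples: 7 of 33 same-numbered pairs correlated above 0.1 (median r -0.01), and 2 of 23 arrays correlated best with their own number. With the replicate block, Smad3 was -2.47 in liver against Tem (adjusted p = 0.00113), and its call in intestine against liver ended (1.22, adjusted p = 0.0786); no other member call changed. With the slide as a random block the slide correlation was -0.06 among sorted cells, and the one change was that Smad4 passed in liver Trm against whole liver (1.66, adjusted p = 0.0487).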
